A study of Mus musculus with 18 samples.

Results

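The genes described here are 10 members of the Wnt pathway, chosen by name from the 23951 genes in the expression table. They are 5 secreted Wnt antagonists (Dkk3, Wif1, Sfrp1, Sfrp2 and Frzb) and 5 genes commonly read as a response to Wnt or as its effectors (Axin2, Lef1, Tcf7, Nkd1 and Notum). Of these, 7 reached 1 FPKM (fragments per kilobase of transcript for a given number of mapped reads, a level scaled for transcript length and depth) in at least 3 of the 18 libraries and were tested, and Sfrp2, Frzb and Notum did not.

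RNA-seq was made from ear skin cells sorted into bulge hair follicle stem cells (HF-SCs; CD45-, CD49f high, CD34+) and basal keratinocytes (b-KCs; CD45-, CD49f high, CD34-). The disease model was the psoriatic-like DKO* mouse, in which floxed alleles (f/f) of both JunB and c-Jun are deleted by a tamoxifen-activated Cre (K5-Cre-ERT), driven by the keratin 5 promoter of basal keratinocytes, on a mixed background. It carried the mT/mG reporter, so that cells in which Cre acted turned from Tomato to GFP. From each of 3 DKO* mice (814, 815 and 817) the GFP (mutant) and Tom (non-mutant) cells of both types were collected 7 days after tamoxifen, and from each of 3 control mice (Co; 810, 825 and 828) both cell types were collected with no GFP or Tom split given in the labels. Co mice carried the mT/mG reporter and K5-driven Cre with wild-type or heterozygous (+/f) JunB and c-Jun, so that Cre and tamoxifen were shared by all groups. Mice of both sexes were 8 weeks old when 4 daily injections of 2 mg tamoxifen began, and Co cells were sorted at the matching middle stage of the disease course by the study's account, with the exact day and the alleles of each Co mouse not given in the sources used here. This makes 6 groups of 3 libraries from 6 mice, and each mouse is 1 replicate.

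Wnt proteins bind Frizzled receptors with LRP5 or LRP6 co-receptors, which stabilises beta-catenin and lets it act with TCF and LEF factors on target genes. Wif1 and the Sfrp proteins, Frzb among them, bind Wnt outside the cell, and Dkk3 belongs to the Dickkopf family, although its own action on Wnt is less settled. Resting bulge stem cells are known to express several such antagonists, and Wnt activity is known to go with the start of a new hair growth phase.

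The libraries held between 16500000 and 26250000 reads as implied by the steps between the lowest FPKM values, and the median change of all 12751 tested genes lay within 0.1 of 0 on the log2 scale in every comparison. Jun stood at 835 to 1086 FPKM in HF-SC Co and at 30.4 to 88.4 FPKM in HF-SC GFP, and Junb at 436 to 463 and 38.6 to 77.5 FPKM. In Tom cells Jun lay between these levels, at 308 to 614 FPKM in HF-SCs (adjusted p against Co = 0.0155, limma, not passed) and at 163 to 400.4 FPKM in b-KCs (adjusted p = 0.00114, passed), where b-KC Co held 876 FPKM or more. Junb in Tom cells was also below all Co values. It stood at 251 to 402 FPKM in HF-SCs (adjusted p = 0.147, limma, not passed). In b-KC Tom it was at 208 to 397 FPKM (adjusted p = 0.00308, limma, passed), against 737 to 772 FPKM in b-KC Co. Cd34, the sorting marker of HF-SCs, was at 161 FPKM or more in all 9 HF-SC libraries and at 2.53 FPKM or less in all 9 b-KC libraries. Krt15 was listed at 0 in the HF-SC library of Co mouse 828 and Krt14 in 3 b-KC libraries, where Krt5, its partner, was high, so a listed 0 can be a failed estimate.

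In control skin, the tested antagonists were higher in the stem cells. In b-KC Co, Dkk3 and Sfrp1 still had means of 14.3 and 17.3 FPKM. Dkk3 was 19.1-fold, Wif1 12.9-fold and Sfrp1 7.32-fold higher in HF-SC Co than in b-KC Co by the ratio of mean FPKM. In DKO* mice all 3 fell in HF-SCs, in mutant GFP and in non-mutant Tom cells, to between 0.370 and 0.565 of the Co mean. In b-KCs, Wif1 fell in Tom cells, while GFP cells lay above all Co libraries in mice 814 and 815 and below them in mouse 817. Axin2 fell in all 4 DKO* populations, while Lef1 and Tcf7 passed the test in none of them.

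Set against HF-SC Co, 4 of the 7 tested members were lower in HF-SC GFP (12.3% of all genes tested were lower) and 0 were higher (13.0% of all genes). In HF-SC Tom 5 were lower (13.9% of all genes) and 0 higher (15.7%). In b-KC GFP 1 was lower (12.0%) and 0 higher (12.5%), and in b-KC Tom 2 were lower (15.3%) and 0 higher (15.4%). These counts move with single mice: the lower members were 1 in HF-SC GFP without 810, 815 or 828 and 2 without 814 or 825, 3 in HF-SC Tom without 815, 825 or 828, 0 in b-KC GFP without 810, 814, 815 or 828 and 2 without 817, and 1 in b-KC Tom without 810, 814, 815 or 828. For HF-SCs, the median log2 difference of the 7 members was -1.0 in GFP and -1.30 in Tom cells, against -0.05 and -0.04 over all genes. For b-KCs it was -0.24 and -0.22, against -0.03 and -0.02. At an unadjusted p under 0.05, 0 members were higher in any of these 4 comparisons, by the same limma test. A gene passed at a Benjamini-Hochberg adjusted p under 0.01 over all 12751 genes in limma, fitted to log2(FPKM + 1), where the added 1 shrinks the differences of low genes. The GFP and Tom comparisons share the Co libraries and the DKO* mice, so they are not independent of each other. In sorted bulk samples, fewer cells that express a gene and less RNA in each cell cannot be told apart.

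**Figure D1:**
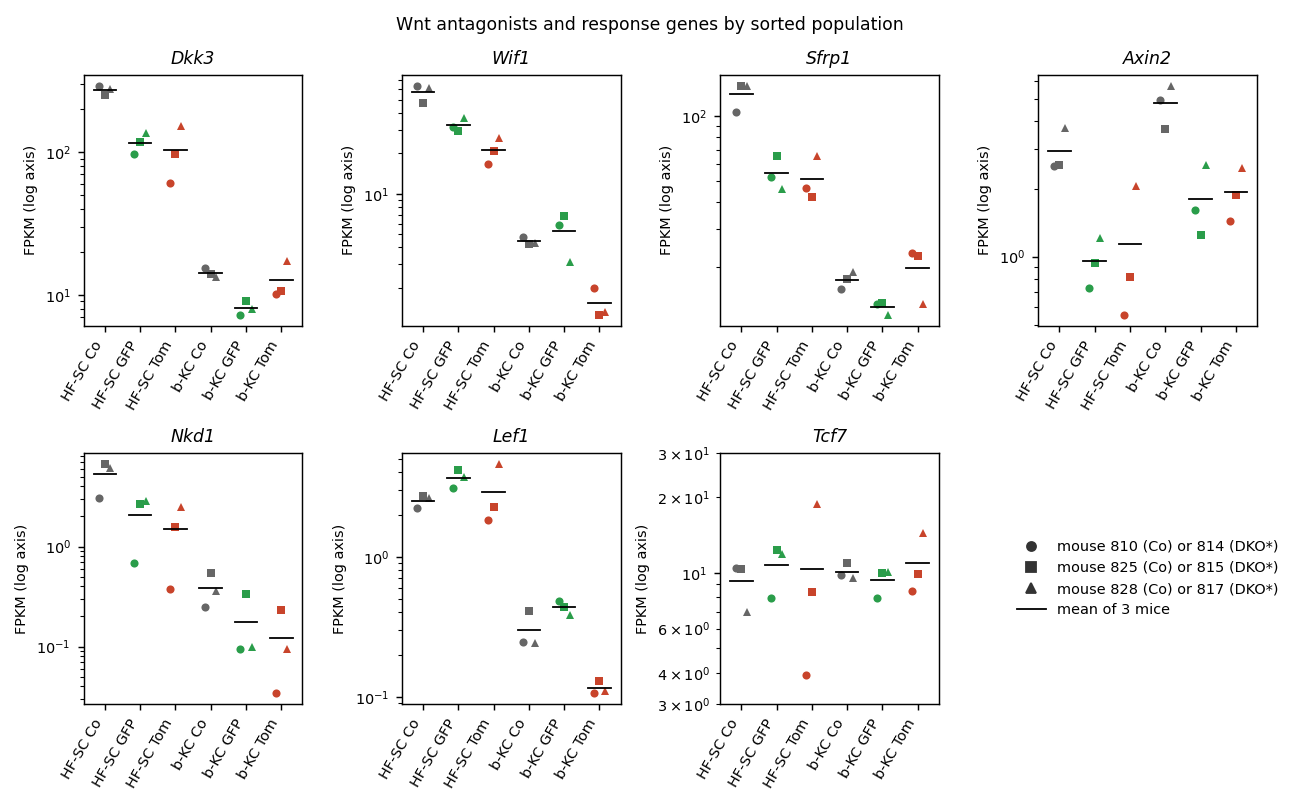
FPKM of the 7 tested members in each of the 18 libraries (log axis), by group, with 1 point per mouse and a line at the mean of 3 mice. Dkk3, Wif1 and Sfrp1 are highest in all 3 HF-SC Co libraries, Axin2 is lower in the DKO* groups of both cell types than in Co, and the Tcf7 ranges of all 6 groups overlap.

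Dkk3 lies at chr7:119259533-119302571 on the minus strand (NCBIM37, GENCODE annotation), where no other annotated gene overlaps it. Among the most abundant transcripts of control stem cells, with the mean ranked 164 of all genes, it stood at 291, 250.2 and 275 FPKM in HF-SCs of Co mice 810, 825 and 828. HF-SC GFP cells of mice 814, 815 and 817 held 96.3, 117 and 136 FPKM, and their Tom cells 60.4, 96.5 and 153 FPKM. Every DKO* value thus lay under every Co value, the 2 fractions overlapped, and mouse 817 was the highest of both. The log2 difference from Co was -1.23 ± 0.26 (SE, n = 3 and 3; adjusted p = 0.00150, limma with Benjamini-Hochberg adjustment) for GFP and -1.49 ± 0.26 (adjusted p = 2.60e-04, same test) for Tom. The GFP call did not hold without Co mouse 810 or 828 (adjusted p = 0.0104 for each) or DKO* mouse 815 (adjusted p = 0.0170) in the limma fit, and the Tom call did not hold in a fit of those groups alone (adjusted p = 0.0131).

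In b-KCs, Dkk3 was at 15.5, 14.0 and 13.3 FPKM in Co, at 7.29, 9.07 and 7.92 FPKM in GFP and at 10.1, 10.6 and 17.3 FPKM in Tom. The 3 GFP values lay under all Co and all Tom values, but the difference from Co of -0.75 on the log2 scale did not pass (adjusted p = 0.0290, limma), nor did the Tom difference of -0.20 (95% interval -0.74 to 0.35). The GFP difference passed in a fit of those groups alone (adjusted p = 0.00523) and without mouse 817 (adjusted p = 0.00238). The interaction, the Tom difference in HF-SCs minus that in b-KCs, was -1.29 in log2 units, which did not pass either (adjusted p = 0.0240, limma) but passed with the mouse as a random replicate block (adjusted p = 0.00361) and without mouse 817 (adjusted p = 7.61e-04).

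Wif1 encodes a secreted protein that binds Wnt, and it lies at chr10:120471016-120537706 on the plus strand (NCBIM37) with no overlapping gene. In HF-SCs it was at 63.5, 47.3 and 61.6 FPKM in Co, at 31.2, 29.3 and 36.8 FPKM in GFP and at 16.8, 20.9 and 26.2 FPKM in Tom. The 3 groups did not overlap, and in each DKO* mouse the Tom cells held less than the GFP cells. The log2 difference from Co was -0.80 ± 0.22 (SE, n = 3 and 3; adjusted p = 0.00869, limma with Benjamini-Hochberg adjustment) for GFP and -1.40 ± 0.22 (adjusted p = 9.97e-05, same test) for Tom. The GFP call was among the weakest of the members: with the mouse as a random replicate block its adjusted p was 0.0158, at a pseudocount of 0.1 it was 0.0188, without the limit on low FPKM it was 0.0212, and without any of the mice 810, 825, 828, 814 or 815 it was between 0.0124 and 0.050 in limma.

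In b-KCs, Wif1 set the fractions apart. It was at 4.75, 4.27 and 4.33 FPKM in Co, at 5.89, 6.85 and 3.10 FPKM in GFP and at 2.0, 1.27 and 1.33 FPKM in Tom. Tom cells were 2.90-fold lower than Co by mean FPKM (log2 difference -1.12 ± 0.22, adjusted p = 7.78e-04, limma), with no overlap. GFP cells were above all Co libraries in mice 814 and 815 and below them in mouse 817, and their difference did not pass (0.15, 95% interval -0.31 to 0.61).

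Wif1 was also the single member called between GFP and Tom cells of the same mice, where 1 member was higher in b-KC GFP than in b-KC Tom (0.361% of all genes) and 0 lower (0.125%). GFP cells held more Wif1 in 3 of 3 mice, a log2 difference of 1.27 ± 0.22 (SE; adjusted p = 0.00729, limma). With the mouse as a fixed replicate block the adjusted p was 0.0321, and it rose over 0.01 without any mouse except 817, up to 0.308 without mouse 815. In the opposite direction, Dkk3 (-0.55, adjusted p = 0.417) and Sfrp1 (-0.53, adjusted p = 0.280, limma) were below Tom in the b-KC GFP cells of 3 of 3 mice, each at an unadjusted p under 0.05 and not passed. In HF-SCs, 0 members passed between GFP and Tom in either direction (0.902% of all genes higher, 4.09% lower, limma), and at an unadjusted p under 0.05 Wif1 alone was higher in GFP, by 0.60 (adjusted p = 0.112).

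**Figure D2:**
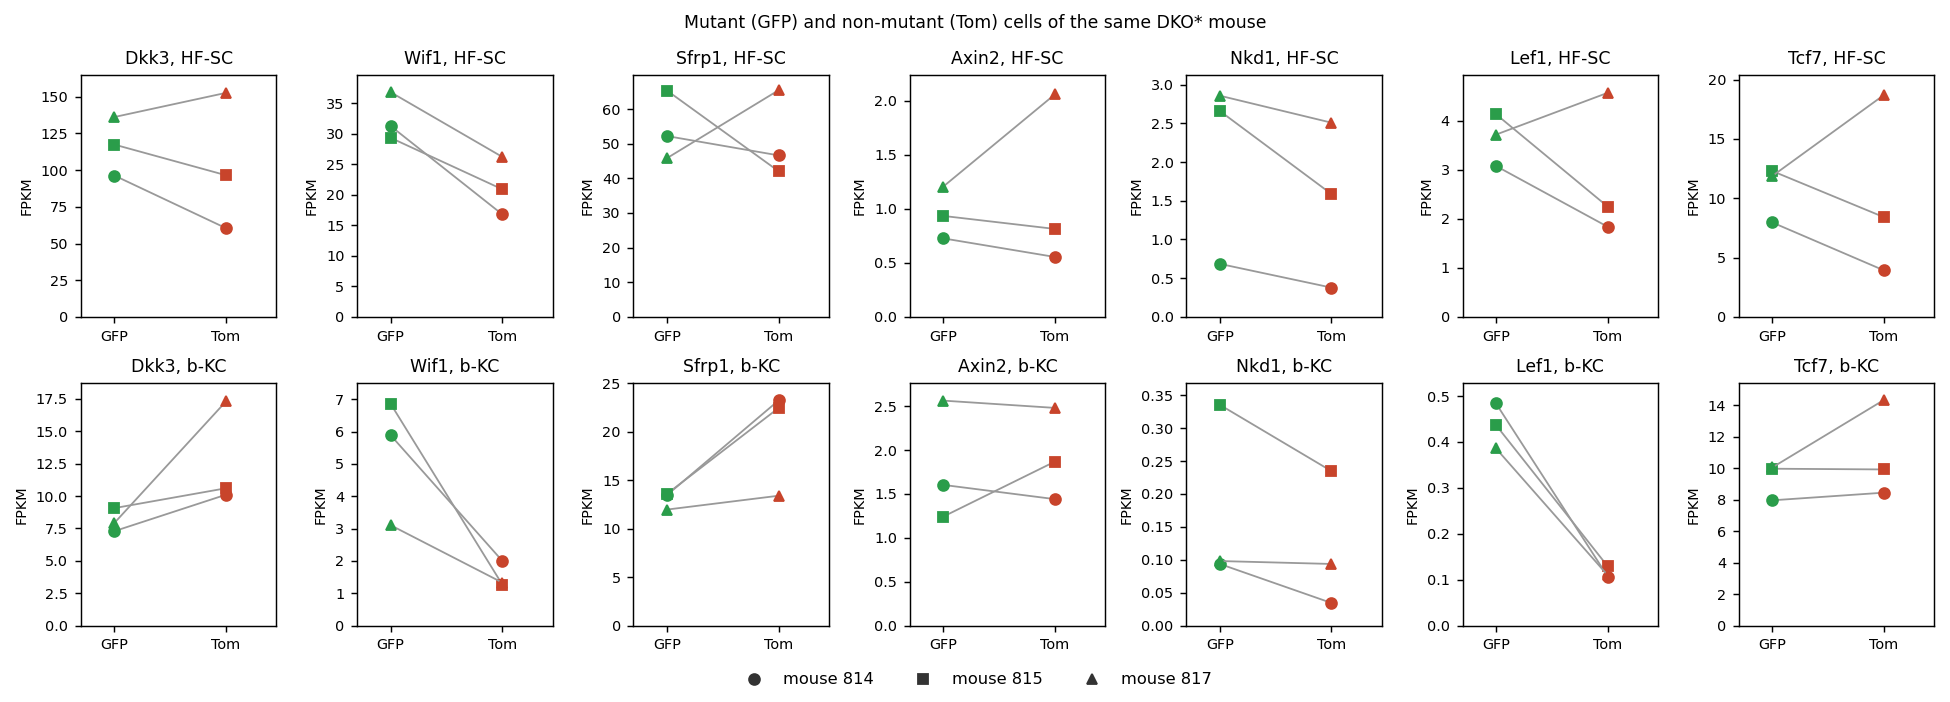
FPKM (linear axis from 0) in GFP and Tom cells of each DKO* mouse for the 7 tested members, with HF-SCs in the upper and b-KCs in the lower panels, and lines that join cells of 1 mouse. GFP is the higher in 3 of 3 mice for Wif1 and Nkd1 in both cell types and for Lef1 in b-KCs, Tom is the higher in 3 of 3 for Dkk3 and Sfrp1 in b-KCs, and Wif1 in b-KCs is the 1 difference that passed the test.

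Sfrp1, a secreted protein with a Frizzled-like Wnt-binding domain, lies at chr8:24521974-24560104 on the plus strand (NCBIM37). HF-SCs of Co mice held 104, 138 and 138 FPKM, HF-SC GFP 52.2, 65.3 and 45.8 FPKM, and HF-SC Tom 46.6, 42.0 and 65.5 FPKM. Both DKO* fractions lay under Co without overlap and overlapped each other. The log2 differences were -1.21 ± 0.21 (SE, n = 3 and 3; adjusted p = 2.91e-04, limma with Benjamini-Hochberg adjustment) for GFP and -1.30 ± 0.21 (adjusted p = 1.20e-04, same test) for Tom.

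In b-KCs Sfrp1 was called in neither fraction. It stood at 15.7, 17.4 and 18.8 FPKM in Co, at 13.5, 13.6 and 12.0 FPKM in GFP and at 23.3, 22.5 and 13.4 FPKM in Tom. Tom cells of mice 814 and 815 were above all Co libraries and that of mouse 817 below them, and neither the Tom difference (0.14, 95% interval -0.29 to 0.58) nor the GFP difference (-0.38, 95% interval -0.82 to 0.05) passed. The Tom difference in HF-SCs minus that in b-KCs, tested as an interaction, was -1.44 ± 0.29 in log2 units (SE; adjusted p = 0.00303, limma). It was the single member whose Tom change was called different between the cell types (1 lower, 2.12% of all genes, and 0 higher, 5.93%), and its adjusted p lay between 0.0106 and 0.0469 without any 1 mouse other than 817. For the GFP change 0 members passed (3.32% of all genes higher, 1.89% lower, limma), and Sfrp1 and Wif1 were lower in HF-SCs at an unadjusted p under 0.05, with adjusted p of 0.0772 and 0.0540.

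Sfrp2 and Frzb, 2 further secreted Frizzled-related proteins, were close to the limit of detection. Sfrp2 was highest in HF-SC Tom of mouse 815, at 0.836 FPKM or about 44 reads, but stood at 0.242 FPKM in mouse 814 and was listed at 0 in mouse 817. HF-SC Co held 0.341, 0.268 and 0.226 FPKM, HF-SC GFP 0.0224, 0.201 and 0.0420 FPKM, and no b-KC library exceeded 0.0734 FPKM. The Sfrp2 values of HF-SC GFP thus lay under all Co values, but on 1, 9 and 2 reads. Frzb reached at most 0.220 FPKM, in HF-SC Co of mouse 825, and within each cell type its 3 groups overlapped. Neither was called in any comparison when the limit on low FPKM was dropped.

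**Figure D3:**
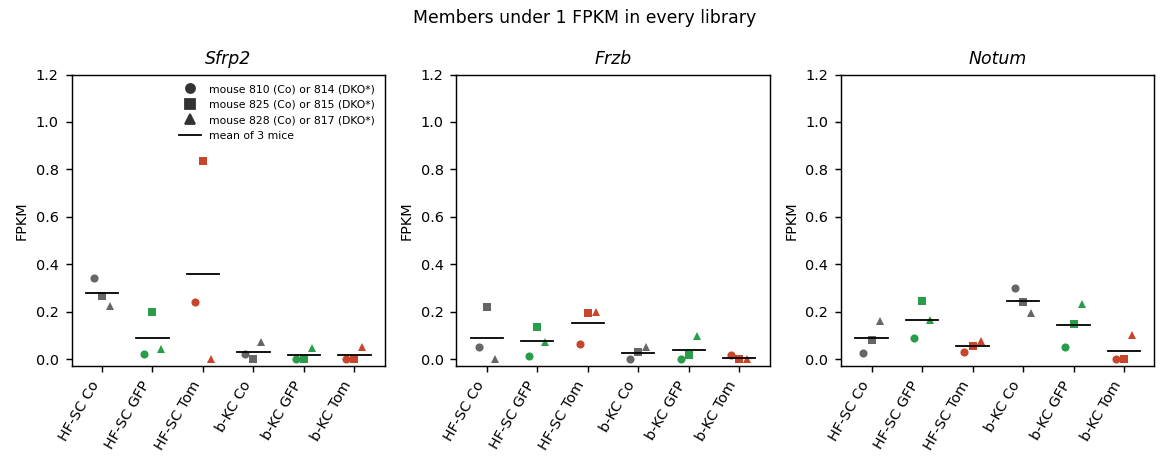
FPKM of Sfrp2, Frzb and Notum in each of the 18 libraries (linear axis), by group, with 1 point per mouse and a line at the mean of 3 mice. No library reaches 1 FPKM, and the highest point is Sfrp2 in HF-SC Tom of mouse 815 at 0.836.

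Axin2, a scaffold of the beta-catenin destruction complex that Wnt signalling itself induces, lies at chr11:108781663-108812097 on the plus strand (NCBIM37), overlapping the minus-strand gene Gm11670, from which these unstranded libraries cannot separate it. Between the control cell types its ranges overlapped, unlike those of Dkk3, Wif1 and Sfrp1. It was at 2.53, 2.55 and 3.73 FPKM in HF-SC Co and at 4.97, 3.70 and 5.72 FPKM in b-KC Co. HF-SC GFP held 0.726, 0.933 and 1.21 FPKM and HF-SC Tom 0.554, 0.813 and 2.06 FPKM. In b-KCs, GFP cells held 1.60, 1.24 and 2.56 FPKM and Tom cells 1.44, 1.87 and 2.48 FPKM. All 12 DKO* values lay under all Co values of their cell type, with mouse 817 the highest in each of the 4 populations.

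The Axin2 log2 differences from Co were -1.0 and -0.93 in GFP and Tom HF-SCs and -1.06 and -0.98 in GFP and Tom b-KCs, each ± 0.24 (SE, n = 3 and 3), with adjusted p of 0.00430, 0.00625, 0.00334 and 0.00421 (limma with Benjamini-Hochberg adjustment). By mean FPKM the falls were 3.08-fold, 2.57-fold, 2.66-fold and 2.49-fold. The interval of the difference between cell types ran from -0.68 to 0.79 for both the GFP and the Tom change. These calls lay near the threshold. Each was lost without the limit on low FPKM (adjusted p of 0.0109 to 0.0167) and without at least 4 of the 6 mice in turn (up to 0.0546), the HF-SC Tom and b-KC GFP calls also in a fit of those groups alone (0.0394 and 0.0103), and the b-KC Tom call at a pseudocount of 0.1 (0.0121, all limma).

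Nkd1 encodes an inhibitor of Dishevelled, is induced by Wnt in many tissues, and lies at chr8:91045243-91118786 on the plus strand (NCBIM37) with no overlapping gene. In HF-SCs it was at 3.07, 6.65 and 6.12 FPKM in Co, at 0.685, 2.66 and 2.86 FPKM in GFP and at 0.378, 1.59 and 2.51 FPKM in Tom. Both fractions lay under Co, with Co mouse 810 and DKO* mouse 814 the lowest of their groups. The Tom difference of -1.38 ± 0.34 passed (SE, n = 3 and 3; adjusted p = 0.00378, limma with Benjamini-Hochberg adjustment), and the GFP difference of -1.07 ± 0.34 did not (adjusted p = 0.0195), but did so without mouse 817 (adjusted p = 0.00605). The Tom call was lost at a pseudocount of 0.1 (adjusted p = 0.0177), without the limit on low FPKM (0.0123), without mouse 815, 825 or 828 (0.0203 to 0.0276), and in a fit of those groups alone (0.0327, limma).

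In b-KCs Nkd1 was low throughout, at 0.250, 0.543 and 0.358 FPKM in Co, at 0.0937, 0.335 and 0.0981 FPKM in GFP and at 0.0345, 0.235 and 0.0937 FPKM in Tom. All Tom values lay under all Co values, and GFP overlapped Co. On the log2(FPKM + 1) scale these were differences of -0.24 and -0.30, and neither passed. Its relative Nkd2, also an inhibitor of Dishevelled, had the opposite distribution, with 10.2 to 12.4 FPKM in b-KC Co and 0.742 to 2.03 FPKM in HF-SC Co. Nkd2 fell in b-KC GFP to 1.17 to 1.53 FPKM (-2.38, adjusted p = 5.17e-07, limma) and in b-KC Tom to 0.278 to 0.425 FPKM (-3.19, adjusted p = 2.50e-08, same test).

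Lef1, the DNA-binding partner of beta-catenin that also serves as a Wnt target, lies at chr3:130813389-130927274 on the plus strand (NCBIM37). It was at 2.21, 2.71 and 2.62 FPKM in HF-SC Co, at 3.07, 4.13 and 3.72 FPKM in HF-SC GFP and at 1.84, 2.25 and 4.57 FPKM in HF-SC Tom. GFP cells were above all Co values, with a log2 difference of 0.40 (95% interval -0.00 to 0.79, adjusted p = 0.105, limma), and Tom cells spread around them. In b-KCs Lef1 was at 0.248, 0.411 and 0.241 FPKM in Co, at 0.484, 0.437 and 0.386 FPKM in GFP and at 0.107, 0.129 and 0.11 FPKM in Tom. Tom cells lay under all Co and all GFP values, and the GFP mean was 3.78-fold the Tom mean. These levels are under the pseudocount of 1, where the GFP to Tom difference came to 0.36 (adjusted p = 0.508, limma), and with a pseudocount of 0.1 it was 1.31 (adjusted p = 0.0228), still short of the threshold.

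Tcf7, a further factor of the TCF and LEF family, lies at chr11:52065873-52096681 on the minus strand (NCBIM37), overlapping A630014C17Rik and Gm16953. Its group means were all between 9.28 and 10.9 FPKM, and the largest spread was within HF-SC Tom, at 3.91, 8.40 and 18.7 FPKM in mice 814, 815 and 817. Differences from Co lay between -0.11 and 0.19 on the log2 scale with 95% intervals reaching from -0.86 to 0.93, so that changes of nearly 1 log2 unit in either direction are within them. Lef1 and Tcf7 are also T cell genes, and the 8 T cell markers in the table (Cd3e, Cd3d and Cd3g among them) summed to at most 3.61 FPKM in any library, with Cd3e at 0.210 FPKM or less. Lck, a kinase of T cells and the 1 of these markers that was tested, passed as higher in Tom cells of HF-SCs, with a log2 difference from Co of 0.92 (adjusted p = 0.00119, limma), at 2.71, 1.80 and 0.729 FPKM in mice 814, 815 and 817 against 0.282 to 0.439 FPKM. The part of T cells in the Lef1 and Tcf7 levels was not tested.

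Notum, an enzyme that inactivates Wnt by removing its lipid, lies at chr11:120515102-120522489 on the minus strand (NCBIM37), overlapping 4732444A12Rik and Gm11768. It was at 0.299, 0.241 and 0.194 FPKM in b-KC Co, or about 9 to 15 reads, at 0.0501, 0.148 and 0.233 FPKM in b-KC GFP, and listed at 0 in b-KC Tom of mice 814 and 815 and at 0.10 FPKM in mouse 817. All b-KC Tom values were under all b-KC Co values. With the limit on low FPKM dropped, that difference was -0.27 on the log2(FPKM + 1) scale (adjusted p = 0.010, limma), just over the threshold. In HF-SCs Notum was at 0.243 FPKM or less. There GFP and Tom each overlapped Co, and the 3 GFP values, from 0.0887 FPKM, lay above the 3 Tom values, of at most 0.0768 FPKM.

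**Figure D4:**
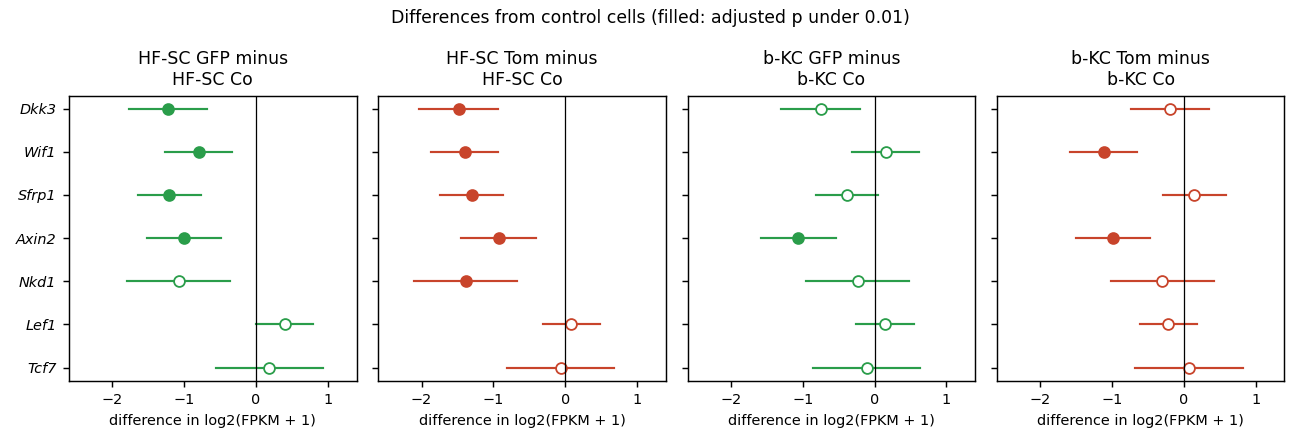
Differences in log2(FPKM + 1) of the 4 DKO* populations from Co for the 7 tested members, with bars for the 95% interval of the limma fit and filled points for adjusted p under 0.01. For GFP and Tom cells there are 4 and 5 filled points among HF-SCs and 1 and 2 among b-KCs, and every one of them lies left of 0.

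In control mice, 5 of the 7 members were higher in HF-SC Co than in b-KC Co (18.7% of all genes) and 0 lower (19.3%). Dkk3 was higher by 4.16 on the log2 scale, Wif1 by 3.41, Sfrp1 by 2.79, Nkd1 by 2.14 and Lef1 by 1.43, with adjusted p between 4.61e-09 and 7.96e-05 (limma with Benjamini-Hochberg adjustment). None of these 5 groups overlapped between the cell types. Axin2 was lower in HF-SC Co by 0.56, which did not pass (adjusted p = 0.0678), but did so with the mouse as a fixed replicate block (adjusted p = 0.00540) and without DKO* mouse 817 (adjusted p = 0.00748, all limma). Tcf7 differed by -0.13 (95% interval -0.88 to 0.62).

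Ordered by mean FPKM, Dkk3, Wif1, Sfrp1 and Nkd1 ran from HF-SC Co at the top through HF-SC GFP and HF-SC Tom to the b-KC groups. HF-SC GFP and HF-SC Tom overlapped for Dkk3, Sfrp1 and Nkd1 and not for Wif1. Lef1 had all 3 HF-SC groups above all 3 b-KC groups with HF-SC GFP first, Axin2 had both Co groups on top, and neighbours in the order of Tcf7 all overlapped. Across the 18 libraries, Dkk3 went with Sfrp1 (Pearson r = 0.955 of log2(FPKM + 1)) and with Wif1 (r = 0.936), while Axin2 had r between -0.412 and 0.276 with the other tested members.

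By the same measure over the 18 libraries, which largely holds the gap between the cell types, the genes most like Dkk3 were Tbx1, Il31ra and Col6a2 (r = 0.984 to 0.991). Those most like Wif1 were Tnfrsf11b, Shisa2 and Fgf1 (0.983 to 0.990), and those most like Sfrp1 were Slc39a8, Grem1 and Chat (0.968 to 0.982). Nkd1 was closest to Bnc2, Sdk2 and Prrg3 (0.969 to 0.973), and Lef1 to Atp2a3, Trib2 and Slc9a2 (0.969 to 0.985). Axin2 was closest to Slc39a3, Elmsan1 and Btbd2 (0.950 to 0.969), and Tcf7 to Tmem248, Txlna and Mapk1ip1l (0.863 to 0.880). Tbx1 is also on the bulge marker list used here.

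RefSeq promoter windows (GRCm38.p6, 250 bases before to 50 after a start site) were at hand for 7 of the 10 members in 11 windows. They were searched on both strands for the AP-1 site bound by Jun and Fos proteins (TGAGTCA or its complement TGACTCA, counted once) and for TCF/LEF words (the word CTTTGAA, the word CTTTGAT, the word CTTTGTA or the word CTTTGTT), motifs that overlap nowhere in these windows. The AP-1 letters were in 0 of the 11 windows and in 5.2% of all 32851 windows. A TCF/LEF word was in 1 of the 11, a downstream start of Lef1, and in 16.9% of all windows. The bases before the start are printed for Wif1, Axin2 and Nkd1, the matched members called in DKO* cells, and for that Lef1 start, all on the plus strand, with the TCF/LEF match (CTTTGTA on the minus strand, first base at -147 from the start) in capitals. The stretches are chr10:121033754-121034003 for Wif1, chr11:108920099-108920348 for Axin2, chr8:88527383-88527632 for Nkd1 and chr3:131156044-131156293 for Lef1. G and C made up 62.8%, 69.2%, 58.4% and 44.8% of them, with 21, 24, 6 and 5 CpG pairs.
Wif1: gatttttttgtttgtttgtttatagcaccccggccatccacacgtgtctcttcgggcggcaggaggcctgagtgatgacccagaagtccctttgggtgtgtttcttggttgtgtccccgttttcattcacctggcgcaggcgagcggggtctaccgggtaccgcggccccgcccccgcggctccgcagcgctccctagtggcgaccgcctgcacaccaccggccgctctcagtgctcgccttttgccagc
Axin2: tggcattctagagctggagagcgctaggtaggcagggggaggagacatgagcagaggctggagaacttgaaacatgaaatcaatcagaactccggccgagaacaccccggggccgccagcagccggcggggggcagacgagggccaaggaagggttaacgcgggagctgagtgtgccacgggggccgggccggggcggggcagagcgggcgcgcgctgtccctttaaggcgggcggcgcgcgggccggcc
Nkd1: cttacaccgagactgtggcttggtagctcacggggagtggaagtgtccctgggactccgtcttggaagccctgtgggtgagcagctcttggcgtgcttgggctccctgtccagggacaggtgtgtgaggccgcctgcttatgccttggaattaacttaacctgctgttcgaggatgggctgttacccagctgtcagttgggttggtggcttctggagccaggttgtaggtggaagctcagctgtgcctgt
Lef1: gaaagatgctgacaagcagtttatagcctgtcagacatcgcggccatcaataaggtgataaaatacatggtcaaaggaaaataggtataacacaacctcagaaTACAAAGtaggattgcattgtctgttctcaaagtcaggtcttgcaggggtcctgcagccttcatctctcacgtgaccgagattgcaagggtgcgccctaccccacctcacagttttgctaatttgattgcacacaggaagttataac

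Other genes of the pathway were followed in 6 lists. Beside the counts in HF-SCs stand the shares over all genes, 12.3% lower and 13.0% higher in GFP and 13.9% lower and 15.7% higher in Tom, and several counts are near them. Of 20 receptors, 4 were lower and 1 higher in GFP cells and 10 lower and 2 higher in Tom cells, and between the fractions themselves 1 of the 20, Fzd4, was called (lower in GFP, as were 4.09% of all genes, limma). Lgr5, an R-spondin receptor and bulge marker, fell from 143 to 175 FPKM in Co to 33.8 to 66.6 FPKM in GFP (-1.68) and 26.7 to 71.4 FPKM in Tom (-1.93). Fzd10, a Frizzled receptor, rose by 1.13 in GFP and by 1.22 in Tom, and Fzd4, a further one, rose by 1.74 in Tom (adjusted p = 6.70e-06, limma), where endothelial markers were also higher. Among 6 other Wnt antagonists and R-spondins, some of them membrane proteins, Sostdc1, which binds LRP co-receptors and BMPs, fell by 1.99 and 1.88 (adjusted p = 8.39e-06 and 1.16e-05, limma), and Dkkl1 fell in Tom by 1.61. These were 1 and 2 of the 6, with 0 higher.

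Of 17 intracellular components 3 were lower and 1 higher in GFP and 4 lower in Tom, among them Btrc, a ubiquitin ligase subunit that recognises beta-catenin (-0.92 and -0.75), and Dvl2, a Dishevelled protein (-0.68 and -0.84). Of 11 nuclear factors 2 were lower in GFP and 4 in Tom, with Pygo1 (-1.05 and -1.15), a co-activator, and Tle2 (-0.93 and -1.01), a co-repressor, lower in both. Of 12 other reported Wnt targets, 2 were higher and 1 lower in GFP, and 3 higher and 3 lower in Tom. Cd44 (1.33 in GFP and 0.70 in Tom) and Sp6 (1.88 and 1.03) rose in both, and Bmp4 (1.13) passed as higher in Tom alone. Bambi fell in both (-1.17 and -0.79), and Msx2 (-1.57) and Dlx3 (-1.38) passed as lower in Tom alone. Of 10 Wnt ligands, 1 was higher and 2 lower in GFP and 3 higher and 2 lower in Tom. Wnt11 (-1.22 and -1.12) and Wnt5b (-1.15 and -0.94) fell in both, and Wnt5a rose in both (1.16 and 0.68). Wnt3a (0.96) and Wnt4 (0.75) passed as higher in Tom alone.

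In b-KCs nearly all pathway genes that passed were lower, in both fractions, where 12.0% (GFP) and 15.3% (Tom) of all genes were lower and 12.5% and 15.4% higher. Of 6 antagonists and R-spondins 3 were lower in GFP and 4 in Tom, led by Dkkl1 (-2.0 and -3.63), with Rspo3 at -1.55 in GFP and Apcdd1, a membrane Wnt inhibitor, at -2.73 in Tom. Of 20 receptors 4 and 9 were lower, with Ror1 (-1.87) and Rnf43 (-1.32) first in GFP and Lgr6 (-2.08) and Fzd7 (-1.73) first in Tom. Of 17 intracellular components 5 and 5 were lower, Nkd2 and then Ctnnbip1, an inhibitor of beta-catenin binding to TCF (-1.15 and -0.97), ahead of the rest. Of 11 nuclear factors 4 and 3 were lower, with Pygo1 (-1.28 and -1.18) and Hipk2 (-0.92 and -0.91) in both. Of 12 other targets 4 and 6 were lower and 1 was higher in each, Bmp4 (-1.84) and Myc (-1.65) leading in GFP and Ccnd2 (-2.75) and Bmp4 (-1.82) in Tom. Rnf43 and Znrf3 stand on both the receptor and the target list, and the fall of Rnf43 is counted in each. Of 10 ligands 4 and 4 were lower, Wnt3a (-2.04) and Wnt7b (-1.96) in GFP and Wnt7b (-1.48) and Wnt5b (-1.20) in Tom. All of these are differences in log2(FPKM + 1) with adjusted p under 0.01 in limma, and the lists were chosen with results of these data known.

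Control cells differed in the same lists, where 18.7% of all genes were higher in HF-SCs and 19.3% lower. In HF-SC Co against b-KC Co, 10 of 20 receptors were higher and 1 lower, Lgr5 by 5.58 and Fzd2 by 3.83, and 8 of 10 Wnt ligands were lower and 1 higher, with Wnt3 at -3.30 and Wnt3a at -2.78. Of the 6 antagonists and R-spondins 1 was higher and 3 lower, Apcdd1 by -3.33 and Dkkl1 by -2.13, so the list did not share the direction of Dkk3, Wif1 and Sfrp1. The factor Tcf7l1 was higher by 2.43 and the co-repressor Tle2 by 1.97, with 4 of 11 nuclear factors higher and 2 lower. Of the other targets 1 of 12 was higher and 6 were lower, Tnfrsf19 at -3.32 and Sp6 at -2.54, and of the intracellular components 2 of 17 were higher and 3 lower, Nkd2 at -2.37 and Csnk1e at 0.75.

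**Figure D5:**
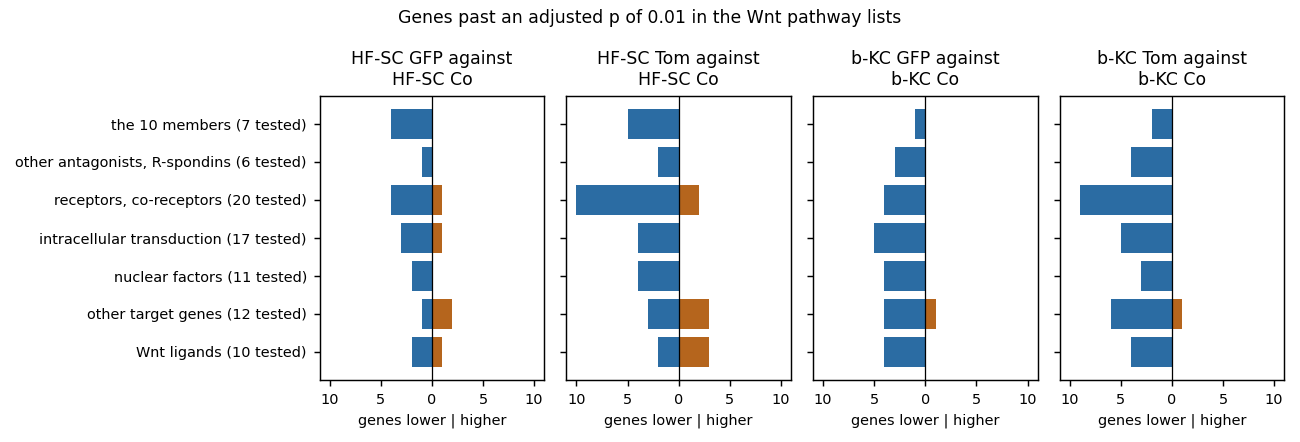
Number of genes past an adjusted p of 0.01 in limma, lower (bars to the left) or higher (bars to the right), for the 7 tested members and 6 other Wnt pathway lists in the 4 comparisons with Co. In b-KCs the bars point left for every list apart from 1 higher gene among the other target genes in each fraction, and in HF-SC Tom 10 of 20 receptors are lower. The fall of Rnf43 in b-KCs is counted among both the receptors and the other target genes.

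Markers of other cells moved with some of these groups. The bulge markers fell with the antagonists in HF-SCs: 7 of 10 were lower in GFP and 6 of 10 in Tom, and without Krt15 their summed level was 2532 to 2754 FPKM in Co, 867 to 1042 FPKM in GFP and 1044 to 1324 FPKM in Tom. Cd34 itself was at 640 to 889 FPKM in Co, at 161 to 228 FPKM in GFP and at 260 to 319 FPKM in Tom. Of 10 bulge markers, 5 passed as lower in Tom cells of b-KCs and 0 in GFP cells (limma, adjusted p under 0.01). The 0 does not mean unchanged levels. Krt15, Lgr5, Sox9, Lhx2, Nfatc1, Tbx1 and Fgf18 lay under all Co values in b-KC GFP, while Cd34, Cd200 and Postn overlapped Co. Krt15 was at 496 to 1137 FPKM there and at 3038 to 3102 FPKM in b-KC Co. Its spread in the fit includes the HF-SC Co library in which it was listed at 0. Nfatc1 was at 9.60 to 15.8 FPKM, against 23.7 to 29.2 FPKM. The part of these changes in the members' differences was not tested.

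Endothelial markers separated the HF-SC fractions. Their summed level was 54.7 to 87.8 FPKM in HF-SC Co, 2.18 to 32.4 FPKM in HF-SC GFP and 454 to 1502 FPKM in HF-SC Tom, with 12 of 12 higher in Tom than in Co, 5 of 12 lower in GFP than in Co and 11 of 12 lower in GFP than in Tom, and b-KC libraries held 11.6 FPKM or less. Fzd4, a receptor known from blood vessels, moved with them, at 1.46 to 1.97 FPKM in Co, 0.608 to 0.666 FPKM in GFP and 4.76 to 11.7 FPKM in Tom (-2.47 in GFP against Tom, adjusted p = 4.92e-07, limma). The leukocyte markers summed to 6.46 to 9.80 FPKM in HF-SC Co and to 95.5 to 195 FPKM in the DKO* HF-SCs, and to 4.05 to 7.16 and 169 to 806 FPKM in b-KCs. Cd74, an antigen presentation gene, made up most of the DKO* sums and was called higher in all 4 DKO* populations. Itgam, an integrin of myeloid cells, was also called higher in HF-SC GFP, at 0.992 to 1.60 FPKM against 0.0521 to 0.194 FPKM in Co (1.06, adjusted p = 2.52e-04, limma), so that 2 of 4 tested leukocyte markers were higher there and 1 of 4 in each other DKO* population. Ptprc (CD45) was at 0.0414 FPKM or less in HF-SC Co and reached 0.946 FPKM in HF-SC GFP of mouse 817, the library that was also highest for Laptm5, Csf1r and Lyz2, at 3.65, 3.14 and 8.16 FPKM. Fibroblast and dermal papilla markers summed to 38.2 to 148 FPKM in HF-SCs and to 11.7 to 41.2 FPKM in b-KCs, and 0 of 7 tested were called in HF-SC GFP or Tom against Co and 1 was higher in each b-KC fraction. Between the control cell types, 10 of 12 endothelial and 4 of 7 fibroblast and dermal papilla markers were higher in HF-SC Co (18.7% of all genes). Of 7 basal keratinocyte markers, Ly6a alone was called in HF-SCs, from 36.6 to 63.7 FPKM in Co to 224 to 351 FPKM in GFP (2.47) and 248 to 882 FPKM in Tom (3.48), and it was also higher in b-KC Tom (1.37), while Col17a1 was lower in b-KC GFP (-2.05). Krt14 was not called in HF-SCs. It stood at 2085 to 2479 FPKM in Co, 4050 to 4612 FPKM in GFP and 5704 to 6787 FPKM in Tom, without overlap. Its spread in the fit includes the b-KC libraries in which it was listed at 0. Krt5, Trp63 and Col17a1 went the other way and lay under all Co values in both HF-SC fractions. Hair matrix markers summed to 34.2 FPKM or less, and of 3 tested Hoxc13 and Msx2 were lower in HF-SC Tom (-1.39 and -1.57) and Msx2 in b-KC Tom (-1.56). Melanocyte markers summed to 23.6 FPKM or less, mostly Mitf in HF-SC Co, which was lower in all 4 DKO* populations (-0.69 to -1.91), and Tyrp1 was higher in HF-SC GFP (1.44). Schwann markers summed to 1.31 FPKM or less, and 0 were tested. The part of these cells in the members' levels was not tested.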

How the data were processed

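The authors made unstranded SMART-Seq v4 and Nextera XT libraries from low inputs of RNA, aligned the single-end reads with TopHat2 2.0.10 (with Bowtie 1.0.0) to mouse build NCBI37/mm9, and deposited a table of FPKM from Cufflinks 2.2.1, with 1 value for a gene in each library. The deposited FPKM are scaled for transcript length and library size, and no further scaling is stated. The submitters' processing notes also list a later mouse build, and the annotation release is not given in the sources used here.

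Here, a gene of the deposited FPKM table was kept when 3 or more of the 18 libraries reached 1 FPKM. Log2(FPKM + 1) was fitted in limma (version 3.58.1, R 4.3.3) with a mean for each of the 6 groups, using lmFit and contrasts.fit and then eBayes with its trend option, and p-values were adjusted by Benjamini-Hochberg within each of 9 comparisons. A gene passed at an adjusted p under 0.01. The added log2 fold minimum of 2 is 1 of 15 alternative settings. The limma step was checked on simulated data. Members were named by symbol, other genes by the highest correlation with a member (3 each) or as the 2 largest changes that passed per pathway list and comparison. Members and lists were chosen with earlier results of these data known, and remarks on Fzd4, marker genes and single mice were picked after their values were seen.

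Libraries with the same mouse number come from the same animal, so the numbers pair the samples within a genotype. Deviations of paired libraries from their group means correlated at r = 0.0838 to 0.687. The depth was read from whole-read steps in low values, of which 75.6% to 80.4% lay within 0.1 of a whole read. Read numbers given for low genes carry counting error only, and 3 reads were at most 0.0908 FPKM for Sfrp2.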

Additional observations from a re-analysis of the deposited data

Results flagged for a closer look

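The change of Sfrp1 in Tom cells differed between the cell types in the fit of all libraries, with an interaction (HF-SC change minus b-KC change) of -1.44 in log2 units (adjusted p = 0.00303, limma with Benjamini-Hochberg adjustment). All 3 HF-SC Tom libraries lay under all HF-SC Co libraries, while in b-KC Tom 2 of 3 mice lay above all Co libraries and 1 below, and the fitted difference there was 0.14. It is listed here because the test of the difference itself passed. The call was lost when any 1 mouse other than 817 was left out (adjusted p of 0.0106 to 0.0469). No explanation was weighed.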

How the results depend on the processing

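Of 903 member values recomputed under the alternatives, 820 kept their side of the threshold, 71 lost and 12 gained a call. Of the 820, 19 changed sign, none of them called. Requiring a log2 fold change of at least 2 left 0 members in each of the 4 comparisons with Co, in b-KC GFP against Tom and in the Tom interaction. Without the limit on low FPKM the members passing against Co were 2 (GFP) and 3 (Tom) in HF-SCs and 0 (GFP) and 1 (Tom) in b-KCs, and 0 between b-KC fractions. With only the groups compared, 2 passed in HF-SC Tom and 0 in b-KC GFP against Tom. With a pseudocount of 0.1, 3 (GFP) and 4 (Tom) passed in HF-SCs and 1 in b-KC Tom, and at an adjusted p under 0.05, 2 passed in b-KC GFP and 2 in the Tom interaction.

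The paired analysis, with the mouse as a replicate block, gave 2 members in the Tom interaction (random block) and 0 in b-KC GFP against Tom (fixed block), where 9 genes passed in place of 62 (230 with the random block). It moved the calls of Wif1 in HF-SC GFP, Wif1 in b-KC GFP against Tom, Dkk3 in the Tom interaction and Axin2 between the Co groups, and no other member's call.

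Leaving out 1 mouse in turn gave, against Co, 1 to 5 members for GFP and 3 to 5 for Tom in HF-SCs, and 0 to 2 for GFP and 1 to 2 for Tom in b-KCs. It gave 0 to 1 in HF-SC GFP against Tom (Lef1, without mouse 817), 0 to 1 in b-KC GFP against Tom, 0 to 1 in the GFP interaction (Wif1, without mouse 817), 0 to 2 in the Tom interaction, and 5 to 6 between the Co groups. The cause of these shifts was not tested. Mouse 817 stood apart: without it 4740 genes passed in HF-SC GFP in place of 3236, and 5790 in place of 3126 in b-KC GFP. Rescaling the libraries and a fit without the trend changed no count of members. Depth limits Sfrp2, Frzb and Notum, and the sole day, 3 mice a genotype and the inexact Co day limit the rest.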
